A study of Mus musculus with 7 samples.

Results

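The comparison described here sets Dll1 GFP high cells with low CD24 against Dll1 GFP high cells with high CD24, both sorted from the mouse intestine. Its members were taken by their titles and are 4 of the 7 arrays of the study, 2 for CD24 low and 2 for CD24 high. All 4 samples came from Dll1-EGFP-ires-CreERT2 mice, in which the Dll1 promoter drives green fluorescent protein (GFP), and both groups passed the same GFP high gate. The remaining arrays, shown only for position, held Dll1 GFP high cells with medium CD24 (2 arrays) and GFP high cells of Lgr5-EGFP-ires-CreERT2 mice (1 array), which the labels describe as intestinal stem cells. Age, sex and the number of mice per sample are not given in the sources used here. The replicates are called biological without being tied to animals, so p-values measure only the spread between these samples.

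Secretory cells of the small intestine arise from crypt progenitors that escape Notch signalling and switch on ligands such as Dll1. Goblet cells make the gel-forming mucin Muc2 and the proteins packed with it, Paneth cells at the crypt base store lysozyme and alpha-defensins in granules and supply Wnt and epidermal growth factor signals to neighbouring stem cells, and enteroendocrine cells make hormones. CD24 is a glycoprotein anchored at the cell surface that is abundant on Paneth cells and lower on most other crypt cells.

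On each array the sample carried the dye Cy3 and RNA of whole small intestine carried Cy5. A level is therefore log2 of sample over whole intestine, so 0 means as abundant as in that reference, and a difference is the mean level in CD24 low minus that in CD24 high. The dyes were never swapped. Differences are given with their standard error (SE) and a p adjusted over all genes, both from a limma fit to the 7 arrays, and a gene was called at an adjusted p under 0.05. In each pair of values, replicate 1 comes first. In CD24 low, 56.4 and 60.5% of spots were well above background in the sample channel, against 44.4 and 42.5% in CD24 high, and 0 spots were saturated. Both CD24 low arrays and CD24 high replicate 2 lay on the second slide, and CD24 high replicate 1 lay on the first. Correlation between arrays was 0.904 within CD24 low, 0.921 within CD24 high and 0.513 to 0.617 between them.

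Of 17537 genes tested, 3166 (18.1%) were called. Levels in CD24 low and CD24 high did not overlap in 3148 of the 3166, so a lack of overlap adds little to a call. The called genes were higher in CD24 low in 1202 cases (6.85% of all) and lower in 1964 (11.2%), and the median difference over all genes was 0.02. Large differences lay mostly on the lower side, with 22 genes more than 8-fold higher and 226 more than 8-fold lower. The higher genes made up 38% of all calls here, 58.4% with Agilent's processed signals, 58.5% with the series matrix and 52.2% with the sample channel alone. On the second slide alone, 351 genes were higher and 855 lower, and with slide as a term 878 were higher and 1551 lower. Without CD24 high replicate 2 the higher genes fell to 443, without CD24 high replicate 1 to 647 and without CD24 low replicate 2 to 551, while the lower genes numbered 1302, 1207 and 1141. Without CD24 medium replicate 1 or 2, which enter the filter and the shared estimate of the spread, 780 and 789 were higher.

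The sort genes came first as a check of the labels. Cd24a, which encodes CD24, was at −0.68 and −0.59 in CD24 low and at 3.34 and 3.47 in CD24 high, with CD24 medium between them at 0.88 and 0.75. Since the cells were sorted on CD24, this only shows that the RNA followed the gate. Dll1, whose promoter drives the GFP that was gated, stood at 2.56 and 2.52 in CD24 low and at 0.61 and −0.04 in CD24 high (difference 2.26, SE 0.24, adjusted p 0.0018). Its transcript was thus higher in CD24 low although both groups were GFP high, and CD24 medium lay with CD24 low at 2.81 and 2.53.

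Genes of Paneth cells were far lower in CD24 low. Alpha-defensins, the antimicrobial peptides of Paneth granules, were lower in CD24 low in 10 of 11 tested members and higher in 0, with a median difference of −10.09, or −5.98 with the sample channel alone. Defa6 was at −3.64 and −3.37 in CD24 low and at 6.73 and 6.61 in CD24 high, a 1159-fold difference (−10.18, SE 0.17, adjusted p 2.4e-06). The sample channel alone, which leaves out the reference, gave −5.72 for Defa6. Defa20 followed with −5.88 and −5.46 against 5.13 and 5.39 (−10.93, SE 0.20). For both genes CD24 low fell far under whole intestine, CD24 high far above it, and CD24 medium between, at 0.68 and 0.49 for Defa6 and −1.58 and −1.62 for Defa20. The other called members, Defa1, Defa3, Defa4, Defa21, Defa22, Defa23, Defa39 and Defa-rs12, differed by −6.45 to −10.92, and Defa3 had a further probe at −10.87. Defa22 and Defa39 are named to complete the family.

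Single alpha-defensin values are uncertain because the genes are near-identical copies and a probe can bind several transcripts. The probes of Defa1 and Defa6 shared an unbroken run of 27 bases, and those of Defa20 and Defa4 one of 18. The runs are shown in capitals within 30 bases of each probe, since they are why these 4 values may not be separate measurements.
Defa1: gTTGAGAGATCTGGTATGCTATTGTAGAtc
Defa6: aTTGAGAGATCTGGTATGCTATTGTAGAgc
Defa20: ggggagGAGGACCAGGCTGTGTCTgtctcc
Defa4: ggaaGAGGACCAGGCTGTGTCTatctcttt

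Because the alpha-defensins moved together, the promoter of Defa20 is shown as an example. It comes from RefSeq on build GRCm38.p6, plus strand, and covers the 250 bases before the start of the gene at chr8:21509008-21509257. Capitals mark ATCAAAG, the reverse complement of CTTTGAT, a form of the site that TCF and LEF factors of the Wnt pathway bind, and TATAAA, the TATA box.
Defa20: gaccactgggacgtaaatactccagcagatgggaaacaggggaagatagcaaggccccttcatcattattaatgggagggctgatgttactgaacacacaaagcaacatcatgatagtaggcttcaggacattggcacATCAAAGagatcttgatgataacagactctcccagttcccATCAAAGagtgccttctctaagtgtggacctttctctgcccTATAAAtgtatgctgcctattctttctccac
The window holds 2 copies of ATCAAAG, and the promoter of Defa21 at chr8:21025295-21025544 matched it at 245 of 250 bases. Searched on both strands, CTTTGAT stood in 13 of 16 alpha-defensin promoters of the RefSeq table (81.25%) and in 3.23% of all 27025. Promoters of this family can be near copies, so the 16 are not independent cases. The related CTTTGAA stood in 0 of 16 and in 4.64% of all. TATAAA stood in 15 of 16 (93.75%) and in 12.97% of all. Of the 11 tested members 4 had an entry, and each of the 4 held CTTTGAT. It stood in 0 of 11 entries for the other Paneth secreted genes and in 1 of 13 for goblet genes (7.69%). A match describes letters and not binding.

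One family member behaved differently. Defa-rs2 was at 7.21 and −0.77 in CD24 low, 11.24 and 3.22 in CD24 high and 7.62 and −0.07 in CD24 medium (difference −4.01, SE 3.78, adjusted p 0.49). Replicate 1 was far above replicate 2 in each of the 3 groups. Among the brightest probes of the 17537 genes, only 2 split by more than 2 in every group in this way. These were the probe of Defa-rs2 and a probe without a gene symbol. Defa-rs2 had 2 probes past the filter, and further probes were not searched.

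The other Paneth granule and secreted genes were lower in 12 of 14 tested members, with a median of −5.12. Lyz1, the Paneth lysozyme that breaks bacterial cell walls, was at −4.21 and −3.49 in CD24 low and at 6.17 and 6.23 in CD24 high (−10.05, SE 0.28, adjusted p 1.0e-05, 1060-fold), or −6.08 with the sample channel alone. Its probe lies on chromosome 10 at 116725254 to 116725313 of mm9. Itln1, a lectin that binds microbial sugars, followed at −2.65 and −2.59 against 6.63 and 6.71 (−9.29, SE 0.15). Replicates of each group lay close together for both genes, and the groups lay far apart. Mmp7, the protease that activates alpha-defensins, stood at −0.10 and −0.06 against 5.13 and 5.22, so in CD24 low it was near whole intestine. The angiogenin Ang4 differed by −7.86, with a further probe at −7.27, the lipase Pnliprp2 by −7.91, the pentraxin Mptx1 by −7.65, colipase (Clps) by −6.69, the stress protein Nupr1 by −4.98 and the coat protein Copz2 by −2.91. Pla2g2a, Pla2g2f and Habp2, named to complete the list, differed by −4.62, −3.41 and −3.53. Sntb1 (0.08, adjusted p 0.81) and Pla2g1b (−0.22, adjusted p 0.34) did not pass.

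**Figure D1:**
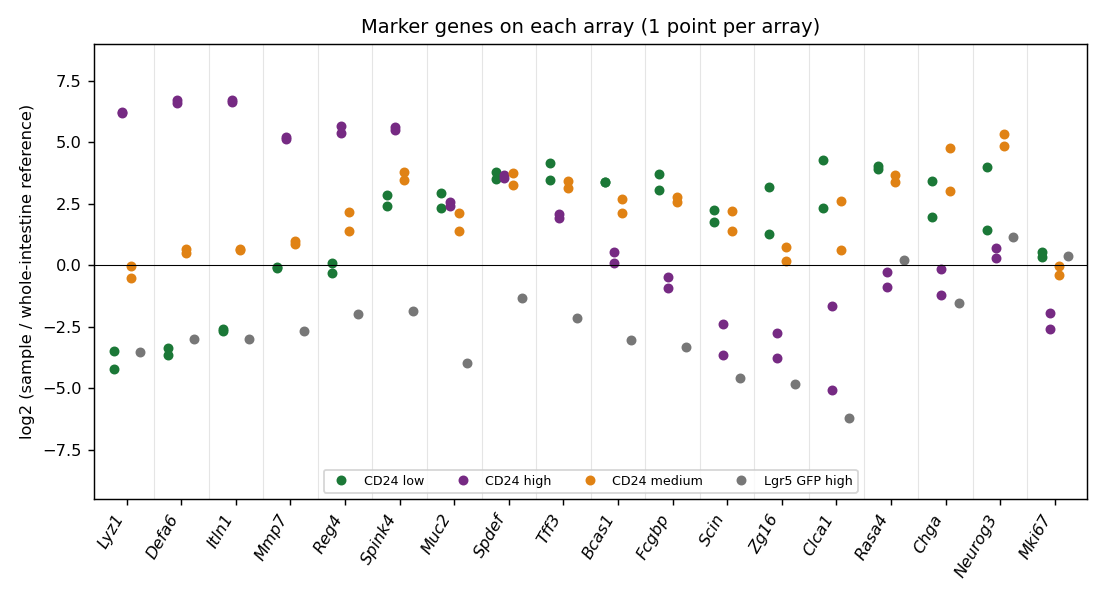
Level of 18 marker genes on every array, as log2 of sample over whole intestine, with 1 point per array and colours for the 4 cell groups. Paneth genes at the left lie high in CD24 high, goblet genes such as Fcgbp, Scin, Zg16 and Clca1 lie high in CD24 low, and Muc2 and Spdef overlap between the groups.

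Among the Reg lectins, small secreted proteins of the gut lining, 2 of 5 were lower and 0 higher. Reg4 was at −0.30 and 0.09 in CD24 low and at 5.38 and 5.66 in CD24 high (−5.63, SE 0.30, adjusted p 1.1e-04). Reg3g differed by −2.40 (adjusted p 0.016), a call that was lost without CD24 high replicate 2. Reg1, Reg3a and Reg3b differed by 0.31, 0.21 and −0.16 and were under whole intestine on all 4 arrays.

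Of 7 niche signals that Paneth cells are known to send to stem cells, 4 were lower in CD24 low and 0 higher. Wnt3, the ligand that sustains crypt stem cells, was at 0.87 and 1.50 in CD24 low and at 4.80 and 4.68 in CD24 high (−3.55, SE 0.26, adjusted p 3.8e-04), and its further probe gave −2.61. Wnt11 was at −0.75 and −0.73 against 3.38 and 4.96 (−4.90, SE 0.46), and Egf at 0.02 and −0.36 against 2.41 and 1.80 (−2.27, SE 0.26). These 3 ligands did not overlap between the groups and were near or under whole intestine in CD24 low, except Wnt3. Tgfa, another ligand of the EGF receptor, differed by −2.74, from 1 probe that holds a short motif described with the probes further on. The Notch ligand Dll4 went the other way at 2.81 and 3.25 against 2.66 and 1.78, without passing (0.81, adjusted p 0.13). Wnt6 and Wnt9b did not pass either, at −0.19 and 0.65.

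Regulators and receptors of Paneth cells were lower in 3 of 11 and higher in 0. Sox9, a transcription factor needed for Paneth cells, was at 0.15 and 0.23 in CD24 low and at 2.18 and 1.66 in CD24 high (−1.73, SE 0.24, adjusted p 0.0049), with further probes at −1.73 and −0.21. Ephb3, a receptor that keeps Paneth cells at the crypt base, differed by −3.51 from 1 probe with the same short motif. Bhlha15, a factor of cells with much secretory machinery, differed by −2.92 with a further probe at −0.34. Gfi1, Xbp1, Kit, Fgfr3, Fzd5, Ephb2, Nod2 and Atg16l1 did not pass and ranged from −0.29 for Kit to 1.14 for Gfi1 (adjusted p 0.074).

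The machinery that folds and exports secreted proteins was also lower in part. Of 26 genes of the unfolded protein response and folding in the endoplasmic reticulum (ER), 9 were lower and 0 higher (median −0.53). Herpud1, an ER stress protein of the degradation pathway, was at 1.53 and 1.06 in CD24 low and at 4.11 and 3.38 in CD24 high (−2.45, SE 0.32, adjusted p 0.0042). P4hb, a disulphide isomerase, was at 1.19 and 1.20 against 2.93 and 3.18 (−1.86, SE 0.16). Both were above whole intestine in all 4 samples and higher in CD24 high without overlap. Dnajc3, a chaperone, differed by −2.26, with 3 further probes at −1.20, −1.28 and −0.76. Hspa5 (−0.95, adjusted p 0.27), Hsp90b1 (−0.34, adjusted p 0.60) and Xbp1 (−0.14, adjusted p 0.73) did not pass. The count was 4 without CD24 high replicate 1 and 3 without CD24 low replicate 2. In ER export and Golgi transport, 8 of 18 were lower and 0 higher (median −0.58). Tmed6, a cargo receptor, was at −0.82 and −0.54 against 4.21 and 4.31 (−4.94, SE 0.22), and Mcfd2, which carries cargo with Lman1, differed by −1.78 with a further probe at −0.71.

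Goblet genes were more often higher in CD24 low than lower. Of 23 tested, 11 were higher in CD24 low, 3 were lower and 9 did not pass, with a median of 0.64. Over all genes 6.85% were higher and 11.2% lower, so the lower count is near its share. Clca1, a protein secreted with mucus, was at 4.29 and 2.33 in CD24 low and at −1.64 and −5.06 in CD24 high (6.66, SE 1.23, adjusted p 0.014). Zg16, a lectin that binds bacteria in mucus, was at 3.18 and 1.29 against −2.73 and −3.78 (5.50, SE 0.63, adjusted p 0.0025, 45.2-fold). Replicate 1 was above replicate 2 in each group for both genes, and the groups did not overlap.

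Fcgbp, which cross-links the mucus gel, stood at 3.73 and 3.07 in CD24 low and at −0.49 and −0.93 in CD24 high (4.11, SE 0.27, adjusted p 2.5e-04), and its further probe gave 4.72. Scin, which severs actin filaments, was at 2.26 and 1.75 against −2.40 and −3.63 (5.02, SE 0.45). Bcas1 was at 3.40 and 3.37 against 0.54 and 0.10 (3.07, SE 0.25), with 2.63 from its further probe. In these 3 genes the levels in CD24 low were well above whole intestine, while CD24 high was near it or under it. Capn9, a protease of the gut lining, differed by 2.49. Tff3, the trefoil peptide secreted with mucins, was at 4.14 and 3.45 against 2.09 and 1.91 (1.80, SE 0.25, adjusted p 0.0052), so it exceeded whole intestine in both groups. Agr2, which assists mucin folding, differed by 1.77, Tpsg1 by 1.70 and Slc12a8 by 0.58, and these are named to complete the list. Slc12a8 lost its call without any 1 array of the 3 Dll1 groups. Muc4, a membrane mucin that stands in this list too, differed by 1.17, and its call was lost without CD24 high replicate 1 or CD24 low replicate 2.

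Muc2, the gel-forming mucin itself, was at 2.94 and 2.35 in CD24 low and at 2.42 and 2.56 in CD24 high (0.16, SE 0.30, adjusted p 0.75), with further probes at 1.06 and 1.85. On the brightest probe the groups overlapped, and both exceeded whole intestine. Klk1 (−0.23) and Guca2a (−0.01) did not pass either, and nor did Ern2, Mlph and Sytl2, at −0.07, 0.08 and 0.09, or Best2, Capn8 and Rep15, at −0.85, 0.64 and 0.84, all named to complete the list. With the sample channel alone Guca2a gave 1.61 and passed. Spink4, a protease inhibitor of goblet granules, was lower in CD24 low, at 2.41 and 2.84 against 5.64 and 5.51 (−2.95, SE 0.21, adjusted p 3.5e-04). Its groups did not overlap, but the sample channel alone gave −0.35 (adjusted p 0.20). Retnlb, an antibacterial protein, differed by −2.35 (adjusted p 0.027) and Lrrc26, a subunit of potassium channels, by −0.61 (adjusted p 0.035). Without CD24 high replicate 1, CD24 high replicate 2 or CD24 low replicate 2, Spink4 was the only 1 of these 3 still called, and Lrrc26 also lost its call without CD24 low replicate 1 or either CD24 medium array.

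Enzymes that build and sulphate mucin sugars were higher in 5 of 24 and lower in 2 (median 0.36), against 6.85% and 11.2% of all genes. St3gal6, a sialyltransferase, was at 1.61 and 1.31 in CD24 low and at −0.65 and −1.12 in CD24 high (2.35, SE 0.23, adjusted p 0.0014). Chst4, a sulphotransferase, was at 1.89 and 2.20 against −0.28 and −0.11 (2.24, SE 0.18). Both were above whole intestine in CD24 low and under it in CD24 high. Gcnt3, which branches mucin glycans, differed by 1.38 and lost its call without CD24 high replicate 2. The sialyltransferase St6galnac2 was lower by −1.39, although its further probes gave −0.20 and −0.41, and Qsox1, a disulphide-forming enzyme, by −1.21 with a further probe at −0.92. The higher members numbered 3 without CD24 high replicate 1 and 2 without CD24 high replicate 2.

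**Figure D2:**
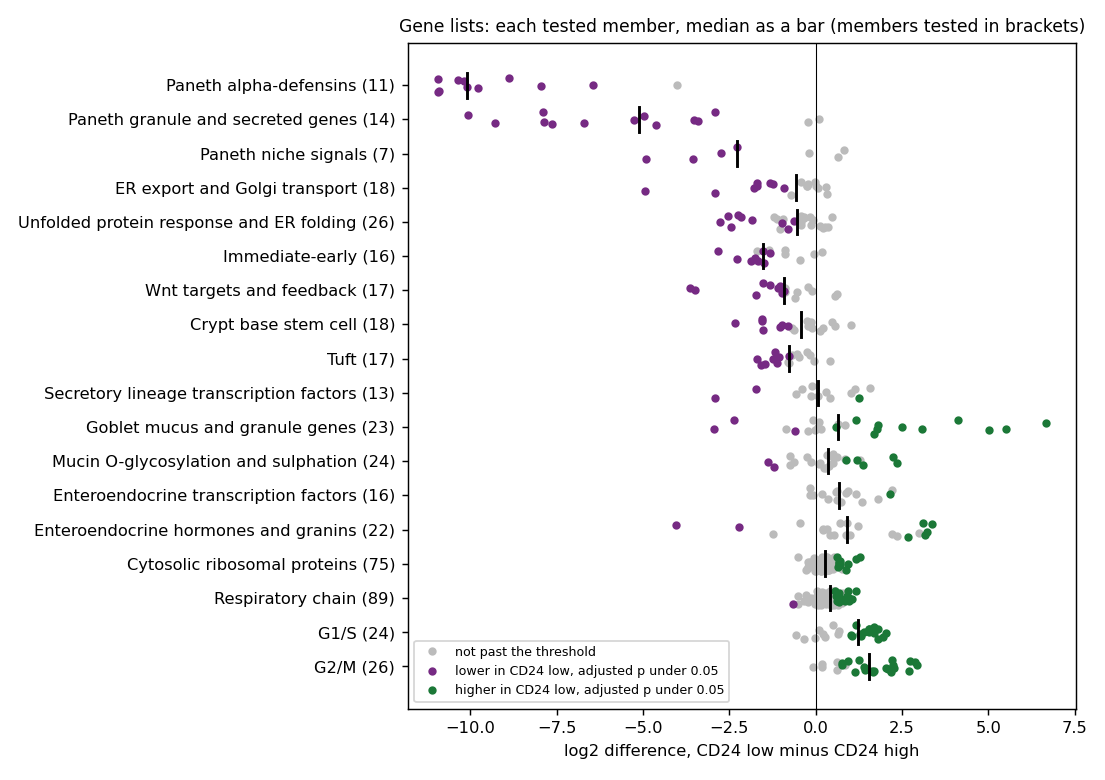
Difference of every tested member of 18 gene lists, as log2 of CD24 low minus CD24 high, with a bar at each list's median and colours for genes past the threshold. Paneth lists reach far to the left, cell cycle lists lie mostly to the right of 0, and goblet and enteroendocrine lists have members on both sides.

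Transcription factors of the secretory lineage mostly did not pass: 1 of 13 was higher, 2 were lower and 10 missed the threshold. These counts are near the shares of all genes, 6.85% higher and 11.2% lower. Spdef, needed for goblet and Paneth maturation, was at 3.79 and 3.52 in CD24 low and at 3.66 and 3.54 in CD24 high (0.05, SE 0.21, adjusted p 0.88). Atoh1, the factor that sets secretory fate, was at 1.67 and 1.67 against 0.98 and 0.31 (1.02, SE 0.33, adjusted p 0.080). Levels of Spdef overlapped and were high in both groups, while those of Atoh1 did not overlap. Creb3l1, an ER-bound factor, was higher by 1.26 and lost its call without CD24 high replicate 2. Klf4 (−0.40), Foxa1 (0.29), Foxa2 (0.41), Foxa3 (−0.11), Creb3l4 (−0.57) and Sox4 (1.57, adjusted p 0.062) did not pass, and Sox9 and Bhlha15 are the lower pair described above.

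Of 9 Notch ligands and modifiers, 1 was higher, the sort gene Dll1, and 3 were lower. Rfng, a glycosyltransferase that modifies Notch, was at 0.14 and −0.03 in CD24 low and at 4.94 and 3.96 in CD24 high (−4.40, SE 0.32, adjusted p 4.0e-04). Dll3, a ligand that does not activate Notch in neighbouring cells, was at 0.16 and 0.37 against 3.31 and 1.99 (−2.38, SE 0.40, adjusted p 0.010). Both were near whole intestine in CD24 low and well above it in CD24 high, each from 1 probe. Mib1, the ubiquitin ligase that ligands need, differed by −1.38. Among 9 receptors and effectors, Notch4 alone passed, at −1.13, which is near the share of all genes that were lower (11.2%). Hes1, the main target of Notch in the crypt, differed by −0.33 (adjusted p 0.24). Notch1 was at −0.41 and −0.49 against −0.58 and −0.23 and passed at 1.54 with Agilent's processed signals.

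Enteroendocrine genes varied between replicates. Of 22 hormones and granule genes, 5 were higher and 2 lower (median 0.90), against 6.85% and 11.2% of all genes. The lower count is thus near its share. The level was higher in replicate 2 than in replicate 1 for 20 of the 22 in CD24 low, 21 in CD24 medium and 16 in CD24 high. The median was 2.10 with 8 higher members with Agilent's processed signals or the series matrix, 2.28 with probes above background on all 4 arrays, and 0.49 with 2 higher members with slide as a term. Chga, the granule protein chromogranin A, was at 1.98 and 3.41 in CD24 low and at −1.22 and −0.14 in CD24 high (3.38, SE 0.71, adjusted p 0.022). Tac1, the precursor of substance P, differed by 3.22, Cck by 3.18, Chgb by 3.11 and Tph1, the serotonin enzyme, by 2.69 with a further probe at 0.96. None of these 5 calls held without CD24 high replicate 1, CD24 high replicate 2 or CD24 low replicate 2, and without CD24 low replicate 1 the higher members numbered 8. Gip, the hormone of K cells, went the other way at −2.58 and −1.93 against 2.06 and 1.53 (−4.05, SE 0.28, adjusted p 2.9e-04), and CD24 medium was with CD24 high at 2.49 and 2.64. Somatostatin (Sst) differed by −2.23. Groups of both genes did not overlap.

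Neurog3, the factor that starts enteroendocrine differentiation, was at 1.43 and 4.01 in CD24 low, 0.70 and 0.30 in CD24 high and 4.86 and 5.32 in CD24 medium (low against high 2.22, SE 0.75, adjusted p 0.091). CD24 low replicate 2 lay closer to CD24 medium than replicate 1 did. The list of 16 enteroendocrine factors had 1 higher member, Tox3 (2.15, adjusted p 0.0011), and 0 lower, and it had 7 higher without CD24 low replicate 1 and 8 with Agilent's processed signals. In the main fit, 1 higher of 16 is near the share of all genes that were higher (6.85%). In 14 of the 16 replicate 2 was above replicate 1 in CD24 low, as it was in 16 in CD24 medium and 5 in CD24 high. Its median was 0.37 and 1.25 on the CD24 low arrays, 0.25 and 0.07 on the CD24 high arrays and 3.32 and 3.95 on the CD24 medium arrays, where all 16 members had a higher mean than in CD24 low. How far enteroendocrine cells in the CD24 low samples enter the other differences was not tested.

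Genes of dividing cells were higher in CD24 low. Of 26 genes of the G2 and M phases 20 were higher and 0 lower (median 1.53, or 2.97 with Agilent's processed signals or the series matrix). Mki67, which marks cycling cells, was at 0.56 and 0.36 in CD24 low and at −1.94 and −2.58 in CD24 high (2.72, SE 0.26, adjusted p 0.0011), with a further probe at 2.35. Cdc20, which activates the anaphase ubiquitin ligase, was at 1.03 and 1.12 against −1.50 and −2.19 (2.92, SE 0.25). Neither gene overlapped between the groups, and both lay above whole intestine in CD24 low and well under it in CD24 high. Birc5 differed by 2.88, Cenpe by 2.71 with a further probe at 0.38, Cdca8 by 2.26, Ccnb2 by 2.25, Kif20a by 2.22 and Aurka by 2.17, which are all parts of the mitotic machinery. Prc1 (0.18), Aurkb (0.63) and Racgap1 (0.85, adjusted p 0.051) did not pass.

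In the G1 and S phases, 15 of 24 genes were higher and 0 lower (median 1.23). Uhrf1, which maintains DNA methylation at replication, was at 0.78 and 0.76 in CD24 low and at −1.08 and −1.42 in CD24 high (2.02, SE 0.30, adjusted p 0.0060), and its further probe gave 1.48. The thymidine kinase Tk1 differed by 1.96, the helicase subunits Mcm4 and Mcm5 by 1.82 and 1.68, and Rrm1 by 1.70. Pcna (−0.57, adjusted p 0.089, from a probe with a motif described further on), Ccne1 (0.09) and Slbp (−0.03) did not pass. Of 9 D cyclins and inhibitors of their kinases 4 were higher and 0 lower. Ccnd2 differed by 2.46, with further probes at 3.22 and 3.16. The count was 1 without CD24 high replicate 1 and 2 without CD24 high replicate 2. The single Lgr5 array gave 0.39 for Mki67, 1.40 for Cdc20 and 2.71 for Uhrf1.

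Some stem cell genes were lower in CD24 low. Of 18 genes of crypt base stem cells, 7 were lower and 0 higher (median −0.44), while the sample channel alone gave 3 higher members and the second slide alone 2 lower ones. Lgr5, the receptor that marks these cells, was at −1.23 and −0.75 in CD24 low, 1.36 and 1.31 in CD24 high and 2.51 in the Lgr5 array (−2.32, SE 0.20, adjusted p 7.7e-04). CD24 high was above whole intestine and CD24 low under it. Tnfrsf19, a receptor of crypt stem cells, was at −3.04 and −3.12 against −1.27 and −1.77 (−1.56, SE 0.20), so it was under whole intestine in both groups, and Rnf43, which removes Wnt receptors, differed by −1.05. Slc12a2 (0.13), Gkn3 (−0.14) and Cd44 (0.56, adjusted p 0.072) did not pass. Ascl2 and Olfm4, defining markers named after their values were seen, differed by −0.10 and −0.67 (adjusted p 0.72 and 0.13), against levels of 1.74 and 3.04 in the Lgr5 array.

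Targets and feedback genes of Wnt signalling were lower in 9 of 17 and higher in 0 (median −0.92). Nkd1, an inhibitor induced by the pathway, was at −4.58 and −4.64 in CD24 low and at −0.92 and −1.01 in CD24 high (−3.65, SE 0.17), although its further probe gave −0.97. Dkk3, a secreted protein related to Wnt inhibitors, was not well above background in CD24 low and at least 2.57-fold lower there (adjusted p 0.012). For such a gene the bound sets the brighter group's sample signal against the lowest signal that stood above background. Myc did not pass (−0.11). The lower count was 4 without CD24 high replicate 2 and 5 without CD24 low replicate 2. Among 20 Wnt ligands and Frizzled receptors, 5 were lower and 0 higher, or 3 without CD24 high replicate 2 or CD24 low replicate 2. Fzd9, a Wnt receptor, was at −1.06 and −1.28 against 4.65 and 4.29 (−5.65, SE 0.19), from 1 probe.

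Boundary and BMP genes moved in both directions. Ephrins of class B, which push EphB cells towards the crypt base, were higher, with Efnb1 at 0.34 and 0.52 in CD24 low and at −0.88 and −0.93 in CD24 high (1.33, SE 0.17, adjusted p 0.0033). In this list of 6 ephrins and receptors 3 were higher and 1, Ephb3, lower, and without CD24 low replicate 2 only Efnb1 was higher. All 4 Id genes, targets of BMP signalling that block differentiation factors, were higher, and 3 other genes of that list of 11 were lower. Id4 was at 2.48 and 1.70 against −0.70 and −0.40 (2.64, SE 0.33), with a further probe at 2.58, and Id1 at −0.56 and −1.46 against −3.23 and −3.14 (2.18, SE 0.29), with 1.93. Id2 and Id3 differed by 1.93 and 1.22. The pseudoreceptor Bambi, which dampens BMP and transforming growth factor signals, was at −1.68 and −1.30 against 4.40 and 4.14 (−5.76, SE 0.21, adjusted p 2.3e-05). The ligands Bmp4 and Bmp7 differed by −3.49 and −2.64, Bmp7 with a further probe at −2.43. None of the 7 called genes overlapped between groups, and these 7 calls held without any single array.

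Markers of other cells show which other transcripts the samples held, but not the share of such cells. Of 17 tuft cell genes 8 were lower in CD24 low and 0 higher (median −0.78, or −1.62 with Agilent's processed signals). Itpr2 differed by −1.45 and Alox5ap by −1.23. The count was 3 without CD24 high replicate 2, 4 without CD24 low replicate 2 and 5 without either CD24 medium array, and Dclk1, a defining marker named after its value was seen, did not pass (−0.78, adjusted p 0.058). Of 25 enterocyte genes 3 were higher and 3 lower, against 6.85% and 11.2% of all genes. The cytokeratin Krt20 of mature villus cells was at −1.58 and −2.62 against −5.75 and −5.59 (3.57, SE 0.33), and Fabp2, which carries fatty acids, differed by 2.26, with CD24 low at −2.80 and −3.75. Both were thus under whole intestine in all 4 samples. The sugar transporter Slc2a5 was lower by −1.68. Without CD24 low replicate 1 the lower enterocyte genes numbered 5, and without any other of these 4 arrays 1.

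Immune genes had list medians of −1.54 and −1.76 in CD24 low and −1.41 and −0.82 in CD24 high, with 4 of 19 lower and 0 higher. Ptprc, which marks all leukocytes, did not reach the filter on signal, and Lcp1 differed by −1.44. Mesenchymal, endothelial and muscle genes had medians of −3.31 and −2.88 against −2.68 and −2.45, with 3 of 10 lower and 0 higher, or 0 lower without CD24 high replicate 2. The lower immune genes numbered 2 without that array. The globin genes Hba-a1 and Hbb-bt and the haem enzyme gene Alas2 differed by −0.48, −0.73 and −0.50 and did not pass. The medians of these lists were under whole intestine on all 4 arrays and somewhat closer to it in CD24 high. Their part in the other results was not tested. Epithelial genes were higher in 3 of 12, led by the homeobox factor Cdx1 (1.17), and Epcam, the surface marker of epithelium, did not pass (−0.16, adjusted p 0.59). The count was 1 without CD24 high replicate 2 or CD24 low replicate 2 and 6 with the sample channel alone. In bulk samples, fewer cells of a type and less RNA per cell cannot be told apart.

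**Figure D3:**
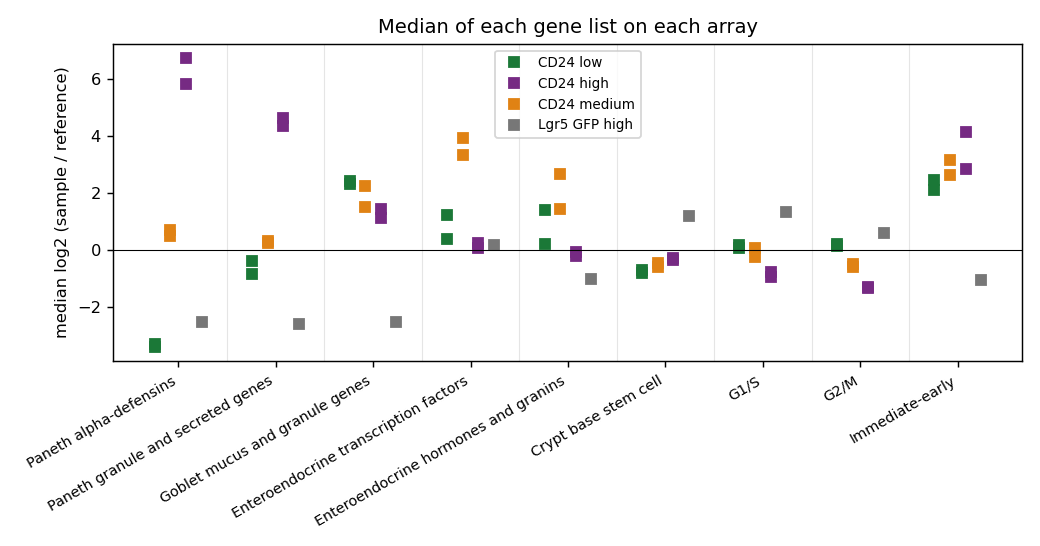
Median level of 9 gene lists on each array, as log2 of sample over whole intestine, with colours for CD24 low, CD24 high, CD24 medium and Lgr5 cells. CD24 low and CD24 high lie farthest apart in the alpha-defensins, CD24 medium lies above both in the 2 enteroendocrine lists, and replicates of CD24 high differ in the immediate-early genes (4.15 and 2.85).

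Immediate-early genes, which respond within minutes to stimuli that include tissue dissociation, were lower in CD24 low in 8 of 16 and higher in 0 (median −1.51). Jun was at 0.94 and 0.88 in CD24 low and at 4.34 and 3.14 in CD24 high (−2.83, SE 0.39, adjusted p 0.0046). Nr4a1 was at 2.38 and 3.33 against 5.37 and 4.92 (−2.29, SE 0.32). The groups did not overlap, and for both genes CD24 high replicate 1 was above replicate 2. Klf2 differed by −1.31, from a probe with one of the motifs described with the probes further on, and gave 0.29 (adjusted p 0.29) with the sample channel alone. Egr1 (−1.69, adjusted p 0.094) and Ier2 (−0.89) did not pass, nor did Fos, named after its values were seen, at 1.82 and 1.99 against 4.10 and 1.51. The lower count was 13 without CD24 high replicate 2 and 5 without CD24 high replicate 1. The part of cell handling in the other differences was not tested.

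Genes of basic metabolism had small median differences. In the main fit each of the lists in this paragraph had a larger share of higher genes than all genes (6.85%). These counts changed with the arrays fitted. Of 75 cytosolic ribosomal proteins, 12 were higher and 0 lower (median 0.26), but the count was 3, 2 and 2 without CD24 high replicate 1, CD24 high replicate 2 and CD24 low replicate 2, and 4 without either CD24 medium array. Rpl14 was at 0.20 and 0.17 in CD24 low and at −0.99 and −1.18 in CD24 high (1.27, SE 0.16, adjusted p 0.0037). Of 89 genes of the respiratory chain, 16 were higher and 1 lower (median 0.42), and the higher count was 0 without CD24 high replicate 2 and 4 to 8 without any other single array. With the sample channel alone 54 ribosomal and 44 respiratory genes were higher. Of 18 glycolysis genes 4 were higher and 0 lower, and fewer were higher without any single array. Pfkp differed by 0.93 on its brightest probe, but its further probes gave 0.305 and −0.016. Of 20 genes of sterol and fatty acid synthesis 6 were higher and 1 lower, and the higher count was 0 without CD24 high replicate 2, 1 without CD24 low replicate 2 and 3 without CD24 low replicate 1 or either CD24 medium array.

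Outside the lists, the largest higher genes were Rasa4, a Ras inhibitor, and Rgs2, a regulator of G protein signalling. Rasa4 was at 4.05 and 3.92 in CD24 low and at −0.27 and −0.88 in CD24 high (4.56, SE 0.24, adjusted p 1.1e-04). Rgs2 was at 1.89 and 1.03 against −3.03 and −2.71 (4.33, SE 0.29), but its further probe gave 0.86. Lgals4, a lectin of the gut lining, was at 1.02 and 0.75 against −2.53 and −3.12 (3.71, SE 0.26), and its further probe gave 3.56. None of these overlapped between the groups, which the rule for naming them required. The related Lgals6 (3.69) may share signal with Lgals4, since the genes are near copies. S100a6 (3.76), the protease inhibitor Serpina1d (3.55), the homeobox factor Isx (3.30), the chemokine Cx3cl1 (3.22, with a further probe at 0.04), the actin-severing Gsn (3.04) and the adhesion protein Ceacam2 (2.90) completed the 10 largest, with symbols of clones, predicted genes and accessions passed over.

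Among genes of which every tested probe passed in the same direction, the higher ones included Cotl1, an actin-binding protein (2.73 and 2.15 from its probes), Hmgb2, a chromatin protein of dividing cells (1.94 and 2.49), and Anxa2 (2.01 and 1.70). Tcea3, Map3k6, Psmb8, Bace2, Tmsb10 and Anxa13 differed by 1.65 to 1.83 on their brightest probe. On the lower side, Ggh, a lysosomal folate enzyme, was at −2.32 and −2.55 in CD24 low and at 2.23 and 2.14 in CD24 high (−4.62, SE 0.16), with a further probe at −4.19. Rnase1, a secreted ribonuclease, was at −0.19 and 0.62 against 4.40 and 4.76 (−4.37, SE 0.32), with −5.13 from its further probe. Both sets of levels lay far apart between the groups. Lyz2, the lysozyme of macrophages, differed by −7.45 and −4.06 and may share signal with Lyz1, its near copy. Trp53inp1 (−4.22 and −2.95), the lysosomal membrane protein Lamp2 (−3.78 and −2.44), the amino acid transporter Slc1a4 (−3.09 and −2.65), the ER oxidase Ero1b (−2.73 and −2.91), Cgnl1 (−2.63 and −2.19) and Cited4 (−2.59 and −2.41) followed. Klf15 was not well above background in CD24 low and at least 9.07-fold lower there.

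Several probes of a gene often disagreed, and most so among the largest lower differences. Of 1067 called genes with further probes, 805 had all probes on the same side of 0 and 261 had all of them past the threshold in that direction. At 2- to 8-fold, further probes lay nearer to 0 on both sides. Their median was 0.669 against 1.364 for brightest probes of higher genes, and −0.489 against −1.435 for those of lower genes. For the 5 higher genes over 8-fold with a further probe, 5 of 5 further probes had the same sign, with a median of 2.64. For the 51 lower genes over 8-fold, 60.3% of 58 further probes had the same sign, and their median was −0.34 against −4.29 for the brightest probes. Ankrd9 (−7.59 on its brightest probe, 0.35 on the other) and Svep1 (−7.40 and 0.03) are examples. So a large negative value resting on 1 probe, as for Rfng, Fzd9 or Bambi, has no second measurement here.

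**Figure D4:**
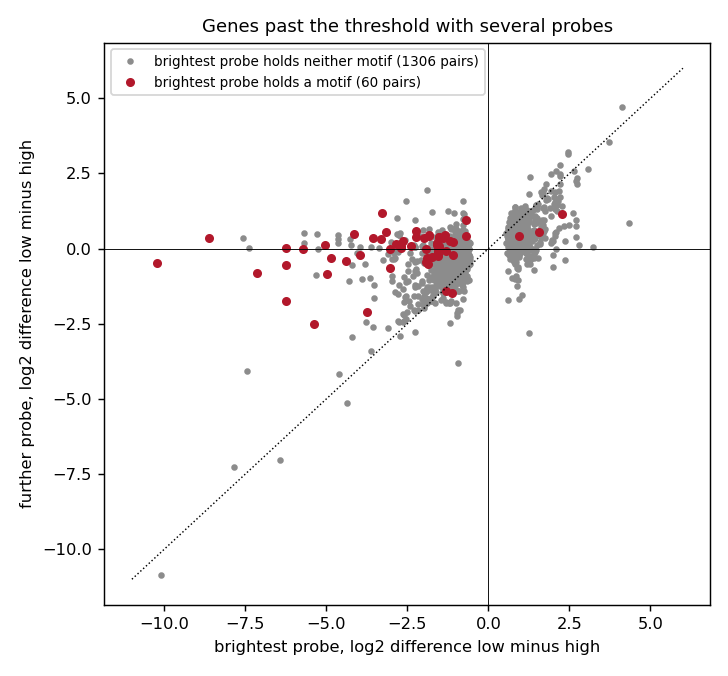
Each point is a further probe of a called gene, with the log2 difference of the gene's brightest probe on the horizontal axis and its own difference on the vertical axis; the dotted line marks equal values. Further probes mostly lie nearer to 0 than the line, also at the right, where that of Rgs2 is at 0.86 against 4.33, and many brightest probes under −2.5, with a motif (red) or without, pair with a further probe near 0.

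After the values were seen, short sequences in the probes of the lower genes were counted. Of 196 genes whose brightest probe holds GTGCCC, 109 (55.6%) were lower in CD24 low and 4 were higher, with a median difference of −1.37. Of the 137 whose probe holds the reverse complement, GGGCAC, 14 (10.2%) were lower. For GCCGCC, 34 of 71 (47.9%) were lower, and for its reverse complement, GGCGGC, 9 of 45 (20.0%). Among the 17270 genes with neither GTGCCC nor GCCGCC, 1821 (10.54%) were lower. Of the 226 genes more than 8-fold lower, 65 (28.8%) held one of the 2 motifs, and of the 22 more than 8-fold higher, 0 did. In 137 genes with probes of both kinds, averaged per gene and kind, the median was −0.69 with a motif and 0.10 without, and the average with a motif was the lower one in 108. The cause was not tested.

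The probes of 6 of the 10 largest lower genes outside the lists, chosen in the same way, hold such a motif. Windows of 30 bases from these probes and those of Ephb3 and Tgfa are shown with the motif in capitals, because their differences come from these probes.
Prm1: gatgctgccgtcGCCGCCgctcatacacca
Krtap19-1: atggatgtggctGCCGCCGCCcttcatgct
Gp1bb: ggcgctgcgactGCCGCCtattgccgctgc
Npff: catgttccctgtGTGCCCccaaataaaaat
Spon2: aagaggccgagtGTGCCCcagataactgcg
Fstl3: ctcaggtagtGTGCCCgcgtccccagtcgt
Ephb3: ggagatatgGTGCCCcatcctgaagccagc
Tgfa: ttagtttgtcatGTGCCCcagaaaaaggtg
Prm1, a sperm chromatin protein, was at −5.58 and −4.50 in CD24 low and at 4.59 and 5.77 in CD24 high (−10.22, SE 0.56), and its further probe, without a motif, gave −0.47. Krtap19-1, a protein of hair, differed by −8.62 with a further probe at 0.35, and Spon2 by −7.15 with one at −0.82. Npff (−7.52), Gp1bb (−7.19) and Fstl3 (−6.94) had no further probe. So 3 of the 6 could be compared, and in each the probe without a motif was far closer to 0. Among genes over 8-fold lower with several probes, further probes lay nearer to 0 without a motif too. In the 33 whose brightest probe held none, medians were −4.22 for that probe and −0.51 for further probes. In the 18 with a motif they were −4.64 and −0.22. The alpha-defensin, Paneth granule and goblet lists hold 0 probes with either motif, which is near the share of all genes (1.52%). With these probes left out, 1186 genes were higher and 1809 lower, Krtap19-1 gave 0.35 from its other probe, and Erbb2, an EGF receptor partner called at −1.17, gave 0.25. Without CD24 high replicate 1 Erbb2 kept its call, and it lost it without any other array of the 3 Dll1 groups.

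**Figure D5:**
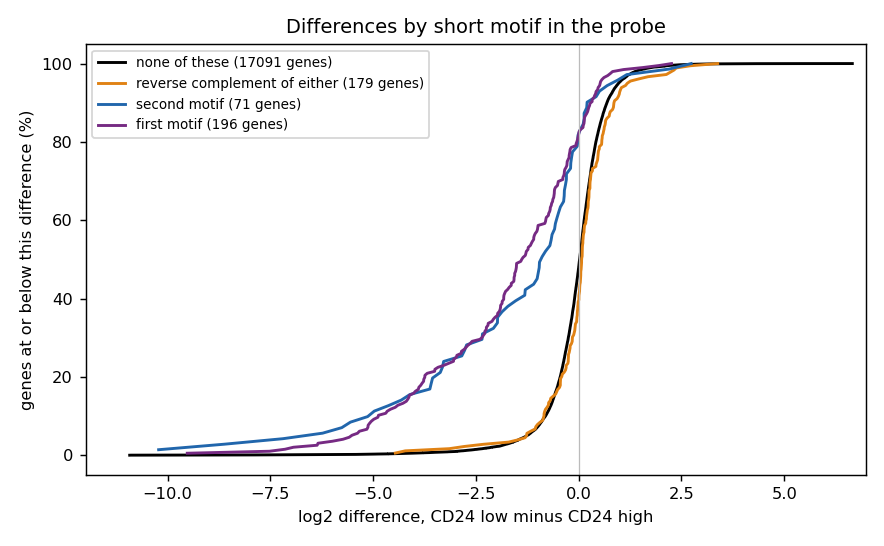
Share of genes at or below each log2 difference of CD24 low minus CD24 high, by the short motif in the gene's brightest probe: GTGCCC is the first motif and GCCGCC the second. The curves of both motifs lie far to the left of the curve of all other genes, and that of the reverse complements lies beside it.

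CD24 medium lay between the groups for most called genes and nearer to CD24 low. Of the 1202 higher genes, 927 had their CD24 medium mean between those of CD24 low and CD24 high, and 1007 had it nearer to CD24 low. Of the 1964 lower genes, 1201 had it between and 742 had it under CD24 low, and 1840 had it nearer to CD24 low. Lyz1 in CD24 medium was at −0.50 and −0.02, Wnt3 at 2.19 and 2.62, Fcgbp at 2.79 and 2.57, and Mki67 at −0.03 and −0.41. All of these lay between the other groups.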

How the data were processed

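Per the file headers, the scans were read out by Agilent Feature Extraction 10.5.1.1, and the deposited columns hold spot and background intensity of both dyes. Per the labels' protocols, 100 ng of RNA isolated with Trizol was amplified linearly and labelled, with the sample in Cy3 and whole small intestine in Cy5. The deposited series matrix holds log10 ratios that match Agilent's log10 ratio after a change of sign (largest difference 5e-06) and thus give sample over reference. Its column medians are 0, except −0.003049 for CD24 high replicate 2.

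From the mean spot intensity, background was corrected by normexp with an offset of 50, and log2 ratios of Cy3 over Cy5 were normalised within arrays by loess with a span of 0.3 (limma 3.58.1, data.table at version 1.17.8, R 4.3.3; Python 3.11.15, pandas 2.3.3 and matplotlib 3.10.9 for sequences and figures). The offset pulls ratios of dim spots towards 0. Probes well above background in the sample channel on at least 2 of 7 arrays were kept, which gave 24495 probes. The brightest probe stood for each symbol, which gave 17537 genes. Names came through RefSeq accessions for 26921 probes and from the array files for 14253. Probe coordinates are given on mm9, as the array files list them.

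The fit over all 7 arrays had a mean for each group and used lmFit and eBayes (3 residual and 3.55 prior degrees of freedom), with Benjamini-Hochberg adjustment over all genes. With 2 arrays per group, their number limits the precision. Simulated data held 17314 genes, of which 200 were changed. In them this comparison recovered 42% of true log2 differences of 1 and 98% of those of 2, with 12 false calls among unchanged genes. The noise was drawn independently for each array, and in the real data 18.1% of genes were called. These rates therefore need not hold for the real data. Genes not well above background in a whole group got a lower bound from the sample channel after loess and quantile scaling (Aquantile).

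The gene lists and the comparison itself were chosen with earlier results of these data known. Lists therefore have counts and a median, and no test. Named genes are fixed markers, up to 8 called and 3 uncalled members of each list, all members of small lists, members called against most of their list, and, outside the lists, the 10 largest differences in each direction among all genes and among genes whose probes all passed, with symbols of clones, predicted genes and accessions passed over. Any other gene is said to complete a list or to have been named after its values were seen. Some members that this rule names are not reported here. Alternatives covered background correction, normalisation, the filter, the probe rule, slide, replicate number, the arrays fitted, an intensity trend and a minimum difference of 1. Leaving out probes with a motif was chosen after seeing the data.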

Additional observations from a re-analysis of the deposited data

How the results depend on the processing

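The numbers of higher and lower genes moved most with the scaling and the fit: 1977 and 3059 with no background subtraction, 794 higher with an offset of 16, 3319 higher with Agilent's processed signals, 3331 with the series matrix, 2316 with the sample channel alone, 796 with the 4 arrays of the comparison alone, 351 and 855 on the second slide alone, and 72 and 396 with a minimum difference of 1. Agilent's processed signals and the series matrix moved the median of all genes from 0.02 to 0.24. Leaving out 1 array gave 443 to 1592 higher and 1141 to 1761 lower genes. The share of higher calls was 25.4% without CD24 high replicate 2, 47.5% without CD24 low replicate 1 and 15.4% with the minimum difference. The causes were not tested.

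The alpha-defensin median was −5.98 with the sample channel alone and −10.22 to −9.96 without 1 array, with 10 members lower each time. The Paneth granule median was −5.76 with the processed signals or the series matrix, −4.03 with the sample channel, −5.97 with probes above background on all 4 arrays and −5.30 to −4.94 without 1 array. It had 11 members lower with probes above background on all 4 arrays and 12 under each of the others named here. The goblet median was 1.33 with the sample channel and 0.52 to 0.82 without 1 array. The lower goblet genes numbered 1 with slide as a term and with the minimum difference, which left 4 higher, and 1 to 2 without 1 array, which left 9 to 10 higher. Of G2 and M genes 10 were higher with the minimum difference and 17 to 20 without 1 array.

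Signs turned for Notch1 (1.54 with the processed signals and the series matrix), Guca2a (1.61) and Klf2 (0.29) with the sample channel, and Erbb2 (0.25) and Krtap19-1 (0.35) without motif probes, an alternative chosen after seeing the data. The median of Wnt ligands and Frizzled receptors was 0.11 with the processed signals and the series matrix, and that of 5 membrane mucins −0.044 with the mean of all probes. Of 154 named genes that passed, 147 kept their call with slide as a term, 152 with the processed signals, 149 with the sample channel and 95 with the minimum difference. Deviations of same-numbered replicates from their group means correlated at −0.005 (low and high), 0.476 (low and medium) and 0.30 (high and medium). CD24 low and CD24 high, the groups compared, thus shared no deviation, and the main fit did not take the numbers as pairs. Whether same-numbered samples have a common source was not tested. A fit with the replicate number as a block gave 1473 higher and 2155 lower genes and kept 153 of the 154 calls. Dim spots, the single Lgr5 array and 2 arrays per group limit what can be resolved.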

Other observations

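Further epithelial genes differed one by one. Of 13 claudins, which seal tight junctions, 2 were lower in CD24 low and 0 higher, near the shares of all genes (11.2% and 6.85%). Cldn4 was at 0.63 and 1.29 in CD24 low and at 3.06 and 3.50 in CD24 high (−2.32, SE 0.42, adjusted p 0.013), a call that was lost without CD24 high replicate 2. Cldn2, a channel-forming claudin of crypts, was at −1.61 and −1.44 against 0.06 and 0.47 (−1.79, SE 0.20, adjusted p 0.0019). Neither overlapped between the groups, and Cldn3, Cldn7 and Cldn15 did not pass, at −0.05, 0.27 and 0.31. Of 5 keratins of simple epithelium, Krt19 (1.18) and Krt20 were higher. Among 11 ligands and receptors of the EGF family, 1 was higher and 3 were lower, against 6.85% and 11.2% of all genes. Of the lower ones, Tgfa and Erbb2 were measured by probes with a motif. Hbegf, the higher one, was at 0.83 and 1.58 against −0.19 and −0.23 (1.42, adjusted p 0.013). It was not called without CD24 high replicate 1 or 2. Without CD24 low replicate 1 there were 2 higher members.

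The levels of genes with GTGCCC in the brightest probe have an order by cell group, which those with GCCGCC do not share. For GTGCCC, the median level on the CD24 high arrays was 1.51 and 1.30. It was 0.26 and 0.24 on the CD24 medium arrays, 0.01 and 0.10 on the CD24 low arrays and −0.07 on the Lgr5 array. Inpp4a (−5.73, with a further probe at −0.01) is a further example, named after its values were seen.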
